A study of Homo sapiens with 8 samples.

Results

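The 28 genes described here encode enzymes of sterol synthesis, the proteins that set the activity of SREBP2, and proteins of sterol uptake, transport and storage. They were named in a list of symbols that was drawn up with earlier results of these data known, and the rule itself uses no value. Each of the 28 was found once among the 20531 genes of the tables, and 2 of them appear there under older symbols, SC4MOL for MSMO1 and SC5DL for SC5D. By role they fall into 19 synthesis enzymes, 4 genes of SREBP2 control and 5 genes of uptake, transport and esterification. All 28 passed the filter on low values (10 units in any library), and each reached 100 units in some library.

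Cholesterol is built from acetyl-CoA through mevalonate, isoprenoid diphosphates, squalene and lanosterol, and most genes of this route are switched on together by the transcription factor SREBP2. SREBP2 is made as a membrane protein of the endoplasmic reticulum, where SCAP escorts it to the Golgi for cleavage when sterols are scarce, and INSIG proteins hold SCAP back when sterols are plentiful. INSIG1 is itself a target gene of SREBP2, so that its transcript follows the activity of the pathway. In breast cancer cells, signalling from HER2 through PI3K and AKT is known to feed into the activity of SREBP proteins.

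Poly(A) RNA was sequenced from SKBR-3 and BT474m1, human breast cancer cell lines that carry amplified HER2. Cultures in RPMI with serum were kept for 48 h, per the labels, with the vehicle DMSO, with lapatinib at 300 nM, with JQ1 at 300 nM, or with the drugs together. Lapatinib blocks the kinases EGFR and HER2, and JQ1 displaces BET proteins from acetylated chromatin. Each of the 8 groups held 1 library, so that replicate spread was not measured, and the comparisons are given without a test. The study asked how HER2 inhibition reprograms transcription and whether JQ1 alters that response. SKBR-3 is known to lack estrogen and progesterone receptors, and BT474m1 is a derivative of BT474, which has both. Each receptor status is thus represented by 1 line.

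The unit throughout is the normalised read count, which the authors scaled so that genes above 0 have an upper quartile of 1000. The depth ran from 21420113 to 34112380 reads on genes, and 1 read was worth 0.471 to 0.766 units. The lowest member, STARD4, rested on 40 reads in its lowest library. ERBB2, which encodes HER2, was between 94678 and 277872 in the 8 libraries, and the epithelial marker EPCAM between 3299.7 and 6223. ESR1, the estrogen receptor, lay between 1.93 and 16.8 in SKBR-3 and between 189.9 and 1827 in BT474m1. PGR, the progesterone receptor, was at 3.06 or lower in SKBR-3 and between 251 and 12466 in BT474m1. Both transcripts thus went with the receptor status given above for the lines. Of the fibroblast markers, COL1A2, COL3A1 and PDGFRB were at 8.02 or lower, while COL1A1 reached 124 in SKBR-3 and 1253 in BT474m1. The leukocyte markers PTPRC and CD3E were at 3.38 or lower and CD68 reached 407 in SKBR-3. The endothelial marker PECAM1 was at 0 in 6 libraries and VWF reached 153.

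The promoters of 5 genes are shown because these genes carry the main contrasts of the data. INSIG1 and INSIG2 both encode INSIG proteins, and their transcripts moved in opposite directions with lapatinib. STARD4 had the largest fall of the 28, TM7SF2 rose where most enzymes did not, and SREBF2 encodes SREBP2 itself. Each stretch holds the 250 bases before the RefSeq start of the gene on GRCh38.p14, 5′ to 3′ on the strand of the gene. For INSIG2, RefSeq lists more than 1 start, and the first is shown. Capitals mark CCAAT and TCACNCNAC, a shortened form of the sterol regulatory element, on either strand.
INSIG1, chr7:155297628-155297877, plus strand: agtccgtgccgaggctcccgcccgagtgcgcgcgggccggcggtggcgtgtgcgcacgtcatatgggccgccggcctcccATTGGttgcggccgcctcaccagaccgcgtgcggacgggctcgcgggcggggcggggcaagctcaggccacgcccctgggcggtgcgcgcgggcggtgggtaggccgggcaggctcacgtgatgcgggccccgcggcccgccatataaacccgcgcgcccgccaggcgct
INSIG2, chr2:118088221-118088470, plus strand: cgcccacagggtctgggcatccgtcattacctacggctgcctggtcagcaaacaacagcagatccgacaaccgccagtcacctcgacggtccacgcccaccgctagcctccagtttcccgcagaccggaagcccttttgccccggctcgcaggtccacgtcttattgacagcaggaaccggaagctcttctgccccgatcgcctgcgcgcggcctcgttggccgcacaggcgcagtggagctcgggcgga
STARD4, chr5:111512536-111512785, minus strand: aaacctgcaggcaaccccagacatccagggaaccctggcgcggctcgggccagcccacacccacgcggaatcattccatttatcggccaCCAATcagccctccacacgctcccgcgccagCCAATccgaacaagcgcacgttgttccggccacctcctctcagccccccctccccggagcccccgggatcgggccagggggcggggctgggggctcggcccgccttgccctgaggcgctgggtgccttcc
TM7SF2, chr11:65111622-65111871, plus strand: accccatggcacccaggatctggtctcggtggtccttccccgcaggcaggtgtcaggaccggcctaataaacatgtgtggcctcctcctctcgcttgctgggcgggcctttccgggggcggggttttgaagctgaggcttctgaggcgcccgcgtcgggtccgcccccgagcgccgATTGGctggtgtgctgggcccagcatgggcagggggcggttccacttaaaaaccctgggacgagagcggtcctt
SREBF2, chr22:41832855-41833104, plus strand: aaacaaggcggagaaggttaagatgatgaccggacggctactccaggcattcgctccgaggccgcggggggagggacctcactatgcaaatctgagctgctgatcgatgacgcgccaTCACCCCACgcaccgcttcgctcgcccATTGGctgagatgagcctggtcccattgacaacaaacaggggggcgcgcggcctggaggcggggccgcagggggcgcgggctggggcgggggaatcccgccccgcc

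RefSeq promoters of 250 bases were matched by Entrez gene identifier for 25 of the 28 genes, 34 promoters in all. ACAT2, FDFT1 and SQLE had no entry in the promoter set used. On either strand, TCACNCNAC occurred in 3 of the 34 (8.82%), those of FDPS, HSD17B7 and SREBF2, against 1.98% of all 21768 promoters of the same length. No motif searched here contains another. CCAAT, the letters read by NF-Y, occurred in 22 of the 34 (64.7%), in 20 genes, against 32.8% of all promoters. GGGCGG, the letters read by SP1, occurred in 31 (91.2%) against 54.1%, and the E-box CACGTG in 4 (11.8%) against 7.41%. A match describes letters in this window and not a bound site.

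Many sterol synthesis transcripts were lower with lapatinib than with DMSO, more often and more deeply in BT474m1 than in SKBR-3. Of the 19 synthesis enzymes, 12 were at least 2-fold lower in BT474m1 (8.06% of all genes) and 0 higher (14%), with a median of -1.33. In SKBR-3, 4 of the 19 were at least 2-fold lower (9.44%) and 1 higher (11.1%), with a median of -0.36. The counts that follow are over all 28 genes. In BT474m1, 14 of the 28 genes were at least 2-fold lower with lapatinib than with DMSO, against 8.06% of the 14429 genes kept, and 2 were at least 2-fold higher, against 14%. The median log2 fold change of the 28 was -1.04 there, against 0.07 for all genes, and 23 of the 28 were below 0. In SKBR-3, 5 of the 28 were at least 2-fold lower, against 9.44% of all genes, and 1 was at least 2-fold higher (11.1%), with a median of -0.15 against 0.05. ACAT2, FDPS, EBP, DHCR7 and INSIG1 were at least 2-fold lower in both lines, 5 of the 28 against 4.15% of all genes, and no gene was at least 2-fold higher in both, against 4.39%. The counting interval, which covers counting error only, included 0 for 7 of the 28 in SKBR-3 and for 2 in BT474m1. The change was lower in BT474m1 than in SKBR-3 for 23 of the 28, against 49.2% of all genes, with a median difference of -0.86 on the log2 scale, against 0.01. In bulk RNA, fewer cells that express a gene and less RNA per cell cannot be told apart.

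With JQ1 alone few members changed at least 2-fold, and those that did were all higher than with DMSO. In SKBR-3, 2 of the 28 were at least 2-fold higher with JQ1 (3.75% of all genes) and 0 were at least 2-fold lower (11.8%), with a median of 0.33 against -0.08 for all genes. Scaling to equal totals took this median to 0.18. In BT474m1, 4 were at least 2-fold higher (4.81%) and 0 lower (11.8%), with a median of 0.12 against -0.06. Of the 28, 17 were above 0 in SKBR-3 and 16 in BT474m1, and of the 19 synthesis enzymes 10 and 8, while the interval included 0 for 5 and 4 of the 28. No gene of the 28 was lowered at least 2-fold in both lines (5.31% of all genes). LSS was raised in both (1.16%), but scaling to equal totals took it to 0.96 in SKBR-3, which left INSIG1 as the 1 raised gene there. Scaling by the median of ratios took MYLIP in SKBR-3 from 0.95 to 1.04, so that it joined LSS. Keratins of the epithelial marker list moved with JQ1 in SKBR-3 as well, KRT8 from 59145 to 211202, KRT18 from 27539 to 97486 and KRT19 from 70271 to 194265, while EPCAM went from 4518 to 4076. Their part in the sterol gene values was not tested.

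With both drugs, 5 of the 28 were at least 2-fold below DMSO in SKBR-3 (20.8% of all genes) and 2 at least 2-fold above it (10.8%). The median was -0.08, equal to that of all genes to 2 decimals, and scaling by the median of ratios turned it to 0.0605. In BT474m1, 11 were at least 2-fold below DMSO (15.3%) and 3 above it (14.2%), with a median of -0.74 against 0.00 for all genes. ACAT2, FDPS, EBP, DHCR7 and STARD4 were lowered in both lines, against 8.93% of all genes, and TM7SF2 and MYLIP were raised in both, against 4.46%. All comparisons with DMSO within a line share the same DMSO library.

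**Figure D1:**
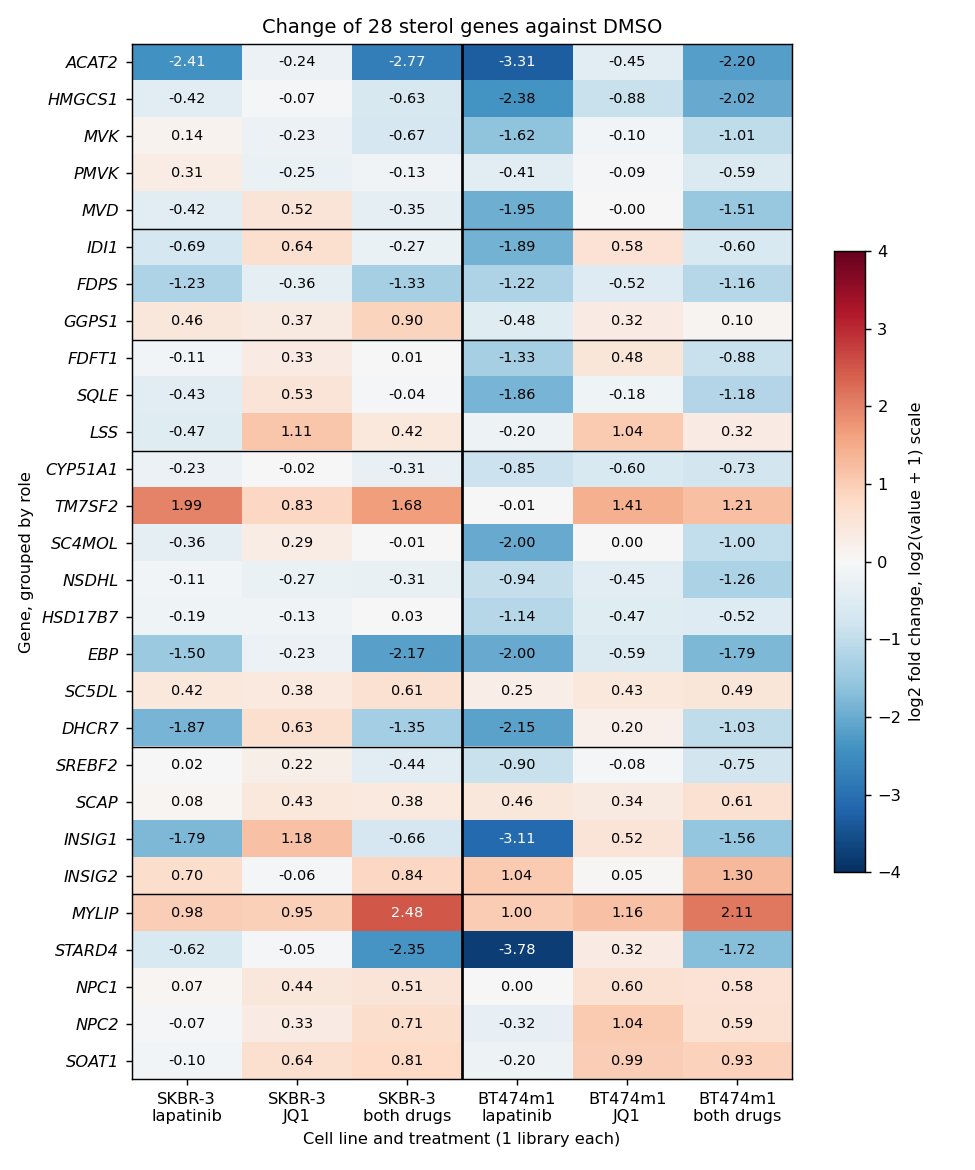
The log2 fold change against DMSO (colour and printed value) of the 28 genes, grouped by role from the mevalonate pathway at the top to uptake, transport and esterification at the bottom, in each drug treatment of SKBR-3 (left) and BT474m1 (right), with 1 library per group. Blue marks values below DMSO, which with lapatinib include 14 genes at least 2-fold lower in BT474m1 and 5 in SKBR-3. Red marks values above DMSO, and TM7SF2, INSIG2 and MYLIP are among the genes that reach 2-fold there in some treatment.

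The 5 genes of the mevalonate pathway turn acetyl-CoA into isopentenyl diphosphate. In BT474m1, 4 of the 5 were at least 2-fold lower with lapatinib and 4 with both drugs, against 8.06% and 15.3% of all genes, with medians of -1.95 and -1.51. In SKBR-3, 1 of the 5 was in each comparison, against 9.44% and 20.8%, with medians of -0.42 and -0.63. ACAT2, the cytosolic thiolase of the first step, was at 632 (DMSO), 118 (lapatinib), 533 (JQ1) and 91.7 (both drugs) in SKBR-3, and at 1383, 139, 1015 and 299.9 in BT474m1. Both lapatinib libraries of each line lay far below its libraries without lapatinib. Its log2 change with lapatinib was -2.41 (-2.68 to -2.17) in SKBR-3 and -3.31 (-3.51 to -3.12) in BT474m1, where brackets hold the 95% counting interval, or 5.33-fold and 9.88-fold lower on the log2(value + 1) scale. On the reference, ACAT2 overlaps the end of TCP1, whose own change with lapatinib was -1.04 in SKBR-3 and -0.64 in BT474m1, and also SOD2, with -0.16 and -0.08, so that reads in the shared stretch are uncertain.

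HMGCS1, which makes HMG-CoA from the product of ACAT2, was at 1801 (DMSO), 1349 (lapatinib), 1711 (JQ1) and 1162 (both drugs) in SKBR-3, and at 12075, 2316, 6556 and 2983 in BT474m1. The BT474m1 library with DMSO was the highest of the 8, and every SKBR-3 library lay below every BT474m1 library. With lapatinib HMGCS1 was 5.21-fold lower in BT474m1, a log2 change of -2.38 (-2.43 to -2.33), and its change in SKBR-3 was -0.42 (-0.51 to -0.33). JQ1 alone gave -0.88 (-0.91 to -0.85) in BT474m1, the lowest value of the 28 with JQ1 in that line, and -0.07 (-0.15 to 0.01) in SKBR-3, not detectable at this depth.

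MVK, mevalonate kinase, was at 899.8 (DMSO), 990.0 (lapatinib), 765 (JQ1) and 564 (both drugs) in SKBR-3, and at 1008, 328, 942 and 499 in BT474m1. The lapatinib library was the lowest in BT474m1 and the highest in SKBR-3. With lapatinib its change was -1.62 (-1.76 to -1.48) in BT474m1 and 0.14 (0.02 to 0.25) in SKBR-3. With both drugs it was -0.67 (-0.80 to -0.55) from DMSO in SKBR-3 and -1.01 (-1.13 to -0.90) in BT474m1, which scaling to equal totals took to -0.998, leaving 3 of the 5 mevalonate genes at least 2-fold lower with both drugs there. MVK overlaps MMAB on the reference, and the ratio of MMAB to MVK stayed between 0.790 and 1.03 in the 8 libraries. MVD, mevalonate diphosphate decarboxylase, was at 223 (DMSO), 166 (lapatinib), 319.6 (JQ1) and 175 (both drugs) in SKBR-3, and at 1692, 436, 1686 and 595 in BT474m1. Every BT474m1 library was above every SKBR-3 library for MVD, and the 2 libraries with lapatinib were the lowest within each line. The change with lapatinib was -1.95 (-2.07 to -1.84) in BT474m1 and -0.42 (-0.68 to -0.17) in SKBR-3. PMVK, phosphomevalonate kinase, ranged from 354 to 545 and changed less than 2-fold against DMSO in all 6 comparisons.

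The 3 isoprenoid genes supply the building blocks of squalene and of prenyl groups. IDI1, the isomerase of isopentenyl diphosphate, was at 1979.6 (DMSO), 1227 (lapatinib), 3087 (JQ1) and 1636 (both drugs) in SKBR-3, and at 3521, 950.1, 5269 and 2325 in BT474m1. The JQ1 library was the highest and the lapatinib library the lowest in both lines. The lapatinib change was -1.89 (-1.97 to -1.81) in BT474m1 and -0.69 (-0.78 to -0.60) in SKBR-3, and with JQ1 0.58 (0.54 to 0.62) and 0.64 (0.57 to 0.71). IDI1 has 3 pseudogene copies in RefSeq that may share reads, and it overlaps WDR37 and IDI2-AS1. FDPS, farnesyl diphosphate synthase, was at 1811 (DMSO), 769 (lapatinib), 1414 (JQ1) and 718 (both drugs) in SKBR-3, and at 2719.7, 1165, 1899 and 1221 in BT474m1. Both libraries with lapatinib lay below both without it in each line. FDPS had nearly equal changes in the lines, -1.23 (-1.34 to -1.13) in SKBR-3 and -1.22 (-1.30 to -1.15) in BT474m1 with lapatinib. It has 10 pseudogene copies in RefSeq and overlaps RUSC1-AS1. GGPS1, which makes geranylgeranyl diphosphate for protein prenylation and not for sterols, ranged from 1105 to 3257 and was above DMSO in SKBR-3 by 0.46 (0.36 to 0.56) with lapatinib, against -0.48 (-0.55 to -0.42) in BT474m1. It overlaps ARID4B on the reference.

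The 3 genes from squalene to lanosterol commit the route to sterols. FDFT1, squalene synthase, was at 1288 (DMSO), 1195 (lapatinib), 1615 (JQ1) and 1295 (both drugs) in SKBR-3, and at 4367, 1739, 6086 and 2375 in BT474m1. The SKBR-3 libraries stayed close together, whereas the lapatinib library of BT474m1 was 2.51-fold below DMSO, a log2 change of -1.33 (-1.39 to -1.27), against -0.11 (-0.21 to -0.01) in SKBR-3. SQLE, squalene epoxidase, was at 4102 (DMSO), 3034 (lapatinib), 5927 (JQ1) and 4002 (both drugs) in SKBR-3, and at 4615, 1272, 4086 and 2040.2 in BT474m1. With DMSO the lines were nearly level, and with lapatinib BT474m1 was the lower. The change of SQLE with lapatinib was -1.86 (-1.93 to -1.79) in BT474m1 and -0.43 (-0.49 to -0.38) in SKBR-3.

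LSS, lanosterol synthase, was at 1037 (DMSO), 749 (lapatinib), 2239.7 (JQ1) and 1383 (both drugs) in SKBR-3, and at 2752, 2391, 5655 and 3446 in BT474m1. The JQ1 library was the highest and the lapatinib library the lowest in both lines. Its rise with JQ1 was 1.11 (1.02 to 1.20) in SKBR-3 and 1.04 (0.99 to 1.08) in BT474m1, and it was the SKBR-3 value that fell below 2-fold, to 0.96, with scaling to equal totals. Against DMSO, the lapatinib change, -0.20 (-0.26 to -0.14) in BT474m1, compares with -1.33 for FDFT1 and -1.86 for SQLE.

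The 8 genes from lanosterol to cholesterol moved unevenly. With lapatinib, 4 of the 8 were at least 2-fold lower in BT474m1 (8.06% of all genes) and 2 in SKBR-3 (9.44%), where 1 was at least 2-fold higher (11.1%). EBP, a sterol isomerase, was at 879 (DMSO), 311 (lapatinib), 751 (JQ1) and 195 (both drugs) in SKBR-3, and at 1711, 427, 1136 and 493 in BT474m1. Its fall with lapatinib was -1.50 (-1.67 to -1.34) in SKBR-3 and -2.002 (-2.12 to -1.89) in BT474m1, and both drugs together gave -2.17 (-2.37 to -1.99) and -1.79 (-1.91 to -1.69). DHCR7, the reductase of the last step to cholesterol, was at 1883 (DMSO), 515 (lapatinib), 2917 (JQ1) and 737 (both drugs) in SKBR-3, and at 3939.7, 889, 4512 and 1934 in BT474m1. In both lines the 2 libraries with lapatinib were below the 2 without it. Its fall with lapatinib was -1.87 (-1.996 to -1.75) in SKBR-3 and -2.15 (-2.23 to -2.07) in BT474m1, while with JQ1 its change was 0.63 (0.56 to 0.70) and 0.20 (0.15 to 0.24).

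SC4MOL, the methylsterol oxidase MSMO1, was at 921 (DMSO), 719 (lapatinib), 1126 (JQ1) and 913 (both drugs) in SKBR-3, and at 2887, 719, 2888 and 1444 in BT474m1. The DMSO and JQ1 libraries of BT474m1 were level and the lapatinib library was 4.01-fold lower, a log2 change of -2.003 (-2.10 to -1.92), against -0.36 (-0.48 to -0.23) in SKBR-3. NSDHL, a sterol dehydrogenase that works next to it, was at 381 (DMSO), 352 (lapatinib), 315 (JQ1) and 307 (both drugs) in SKBR-3, and at 871, 454, 636 and 362 in BT474m1. Its change with both drugs in BT474m1 was -1.26 (-1.40 to -1.13), and in SKBR-3 it was -0.31 (-0.50 to -0.13). HSD17B7, the sterol ketoreductase, was at 59.4 (DMSO), 52.1 (lapatinib), 54.1 (JQ1) and 60.5 (both drugs) in SKBR-3, and at 415, 188, 299 and 289 in BT474m1. The fall in BT474m1 with lapatinib was -1.14 (-1.34 to -0.96), and in SKBR-3 no difference was detectable at its depth of 68 reads or more, with -0.19 (-0.67 to 0.29). The ratio of its copy HSD17B7P2 to HSD17B7 was between 0.289 and 0.479, so that its reads may be divided.

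TM7SF2, a sterol reductase with an isozyme in the nuclear envelope, had the largest rise among the 19 enzymes against DMSO. It was at 313 (DMSO), 1249.6 (lapatinib), 555 (JQ1) and 1004 (both drugs) in SKBR-3, and at 3124, 3107, 8286 and 7215 in BT474m1. Lapatinib and both drugs gave the highest SKBR-3 libraries, whereas JQ1 and both drugs gave the highest BT474m1 libraries. With lapatinib the change was 1.99 (1.84 to 2.15) in SKBR-3, 3.99-fold higher, and -0.01 (-0.06 to 0.04) in BT474m1, not detectable at this depth. With JQ1 it was 0.83 (0.66 to 0.998) in SKBR-3 and 1.41 (1.37 to 1.45) in BT474m1, and with both drugs 1.68 (1.53 to 1.84) and 1.21 (1.16 to 1.25). CYP51A1, the lanosterol demethylase with 3 pseudogene copies in RefSeq, ranged from 1841 to 3901, and SC5DL, a sterol desaturase, from 518 to 1527. Both changed less than 2-fold against DMSO in each drug treatment, and SC5DL was above DMSO in all 6 comparisons.

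**Figure D2:**
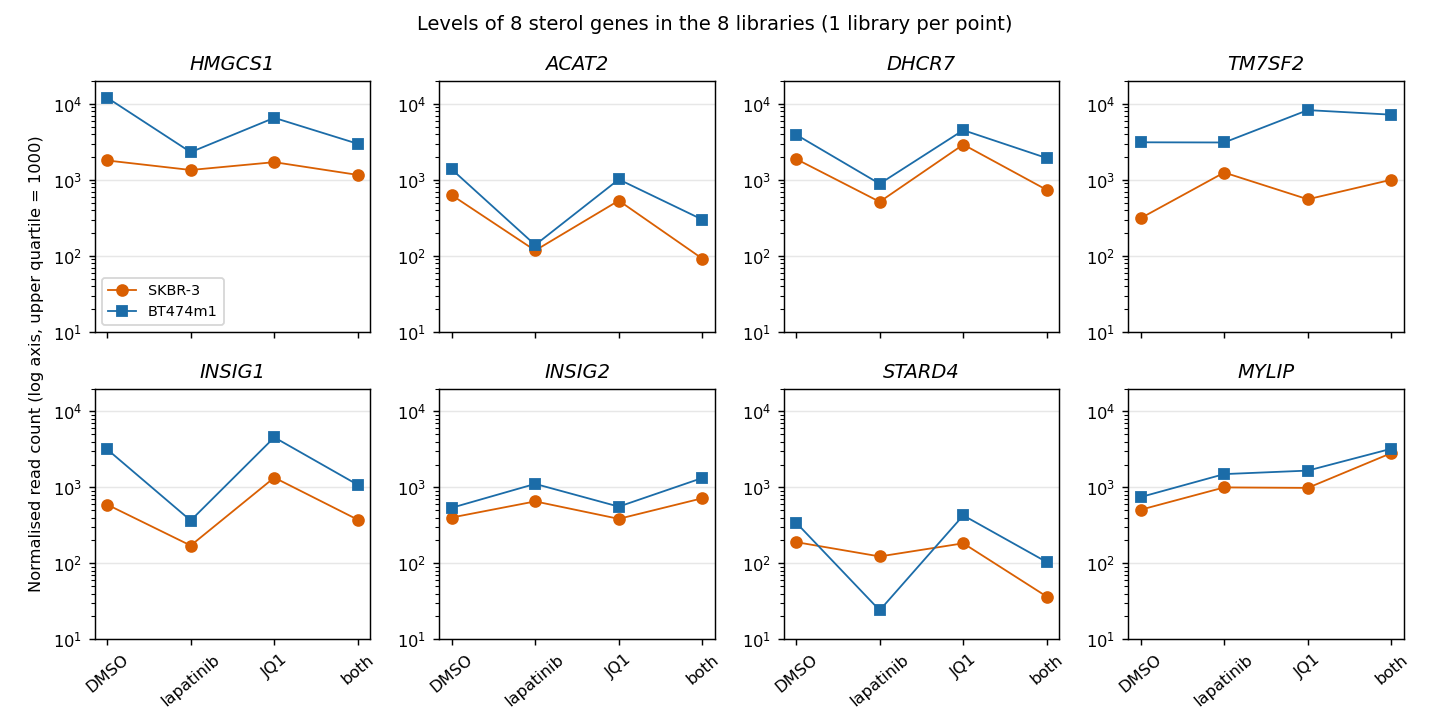
Normalised read counts (log axis) of 8 of the genes in the 8 libraries, with treatments on the x axis, SKBR-3 as orange circles and BT474m1 as blue squares, 1 library per point and lines that join the points of a cell line. ACAT2, DHCR7 and INSIG1 are low in the libraries with lapatinib in both lines, whereas INSIG2 is high there, MYLIP is lowest with DMSO and highest with both drugs, and STARD4 falls to 24.1 with lapatinib in BT474m1.

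Among the 4 genes of SREBP2 control, the INSIG genes moved apart with lapatinib while SREBF2 and SCAP changed less than 2-fold. INSIG1 was at 594 (DMSO), 172 (lapatinib), 1345 (JQ1) and 375 (both drugs) in SKBR-3, and at 3174, 366, 4556 and 1079 in BT474m1. The order of the libraries was the same in both lines, with JQ1 highest, then DMSO, both drugs and lapatinib. Its change with lapatinib was -1.79 (-2.01 to -1.58) in SKBR-3, 3.45-fold lower, and -3.11 (-3.24 to -3.00) in BT474m1, 8.65-fold lower. With JQ1 it was 1.18 (1.06 to 1.30) and 0.52 (0.48 to 0.57), and with both drugs -0.66 (-0.82 to -0.51) and -1.56 (-1.63 to -1.48). INSIG2, whose protein has the same retention role, was at 401 (DMSO), 654 (lapatinib), 385 (JQ1) and 719.5 (both drugs) in SKBR-3, and at 538, 1111, 558 and 1331 in BT474m1. In each line both libraries with lapatinib were above both libraries without it. With lapatinib its change was 0.70 (0.55 to 0.86) in SKBR-3 and 1.04 (0.94 to 1.15) in BT474m1, and with JQ1 -0.06 (-0.23 to 0.11) and 0.05 (-0.07 to 0.17), not detectable at this depth. The log2 ratio of INSIG1 to INSIG2 therefore shifted with lapatinib, relative to DMSO, by -2.50 (SKBR-3) and -4.16 (BT474m1). For both drugs the shift was -1.51 and -2.86, and with JQ1 1.24 and 0.47. Only the shifts can be read, since the values are not per length.

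SREBF2 was at 2638 (DMSO), 2681 (lapatinib), 3082 (JQ1) and 1939 (both drugs) in SKBR-3, and at 6477, 3481, 6127 and 3852 in BT474m1. Both libraries with lapatinib were the lower in BT474m1, and in SKBR-3 the library with both drugs was the lowest. The change with lapatinib was -0.90 (-0.94 to -0.85) in BT474m1 and 0.02 (-0.04 to 0.09) in SKBR-3. SCAP was at 1399 (DMSO), 1476 (lapatinib), 1880.2 (JQ1) and 1816 (both drugs) in SKBR-3, and at 929, 1282, 1179.6 and 1417 in BT474m1. Its change was 0.46 (0.38 to 0.55) with lapatinib and 0.61 (0.52 to 0.70) with both drugs in BT474m1, and 0.08 (-0.01 to 0.17) and 0.38 (0.29 to 0.46) in SKBR-3.

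The 5 genes of uptake, transport and esterification held both the deepest fall and the largest rises. STARD4, a sterol carrier of the cytosol and a known target gene of SREBP2, was at 190.4 (DMSO), 123 (lapatinib), 184 (JQ1) and 36.5 (both drugs) in SKBR-3, and at 344, 24.1, 428 and 104 in BT474m1. The lowest library was that with lapatinib in BT474m1, on 40 reads, and that with both drugs in SKBR-3. The lapatinib change was -3.78 (-4.33 to -3.37) in BT474m1, 13.7-fold lower, and -0.62 (-0.92 to -0.34) in SKBR-3. With both drugs it was -1.72 (-1.97 to -1.49) and -2.35 (-2.84 to -1.95). MYLIP, a ubiquitin ligase that marks lipoprotein receptors for degradation and a known target of the liver X receptors, was at 508 (DMSO), 999 (lapatinib), 985 (JQ1) and 2828 (both drugs) in SKBR-3, and at 745, 1496, 1663 and 3227 in BT474m1. In each line it was lowest with DMSO and highest with both drugs. Against DMSO, the lapatinib change was 0.98 (0.84 to 1.11) in SKBR-3 and 1.004 (0.91 to 1.10) in BT474m1, at the edge of 2-fold, with JQ1 0.95 (0.83 to 1.09) and 1.16 (1.07 to 1.24), and with both drugs 2.48 (2.36 to 2.60) and 2.11 (2.03 to 2.20). INSIG2 and MYLIP were the 2 genes raised by lapatinib in BT474m1, and with scaling by the median of ratios 0 of the 28 were.

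NPC2, which with NPC1 moves cholesterol out of lysosomes, was at 654 (DMSO), 623 (lapatinib), 824 (JQ1) and 1072 (both drugs) in SKBR-3, and at 1624, 1305, 3333 and 2452 in BT474m1. The JQ1 library was the highest in BT474m1 and the library with both drugs the highest in SKBR-3. Its change with JQ1 was 1.04 (0.98 to 1.10) in BT474m1 and 0.33 (0.21 to 0.46) in SKBR-3. NPC1 ranged from 875 to 3011, and SOAT1, which esterifies cholesterol for storage, from 401 to 1542. NPC1 overlaps RMC1 and NPC2 overlaps SYNDIG1L on the reference. The changes of NPC1 and SOAT1 against DMSO stayed below 2-fold in all 6 comparisons, with SOAT1 at 0.99 with JQ1 in BT474m1. Over the 8 genes that stayed below 2-fold throughout (PMVK, GGPS1, CYP51A1, SC5DL, SREBF2, SCAP, NPC1 and SOAT1), the log2 changes ran from -0.90 to 0.99. Scaling by the median of ratios took SOAT1 with JQ1 in BT474m1 to 1.03 and GGPS1 with both drugs in SKBR-3 to 1.04.

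With both drugs, more of the 28 genes were higher than with lapatinib alone in BT474m1 than in SKBR-3. Within a line this comparison shares its lapatinib library with that of lapatinib and DMSO, so that a low value in this library enters both a fall with lapatinib and a rise from it. Both drugs against lapatinib alone put 9 of the 28 at least 2-fold higher there (5.2% of all genes) and 0 at least 2-fold lower (12.5%), with a median of 0.58 against -0.02 for all genes and 26 of the 28 above 0. Of the 19 synthesis enzymes, 17 were above 0, with a median of 0.53. In SKBR-3, 2 of the 28 were at least 2-fold higher (3.22%), INSIG1 and MYLIP, and 1 was lower (16.2%), STARD4, with a median of 0.16 against -0.11. Both INSIG1 and MYLIP were among the 9 in BT474m1 as well, so that 2 of the 28 were raised in both lines (1.14% of all genes) and 0 were lowered in both (6.31%). Scaling by the median of ratios took the count of raised genes in SKBR-3 from 2 to 4. The change was higher in BT474m1 than in SKBR-3 for 24 of the 28, against 58% of all genes, with a median difference of 0.31 on the log2 scale, against 0.11. The difference between the lines was not tested.

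The genes raised in BT474m1 were of several roles. STARD4 had the largest difference, 2.06 (1.61 to 2.64), followed by INSIG1 with 1.56 (1.43 to 1.69), against -1.73 (-2.23 to -1.30) and 1.12 (0.90 to 1.36) in SKBR-3. Among the enzymes, IDI1 was at 1.29 (1.21 to 1.38), TM7SF2 at 1.22 (1.17 to 1.26), DHCR7 at 1.12 (1.03 to 1.21), ACAT2 at 1.10 (0.88 to 1.34) and SC4MOL at 1.004 (0.91 to 1.11). SOAT1, at 1.12 (0.99 to 1.26), and MYLIP, at 1.11 (1.04 to 1.18), completed the 9. With both drugs, ACAT2, DHCR7, INSIG1 and STARD4 in BT474m1 were still at least 2-fold below DMSO, with log2 changes of -2.20, -1.03, -1.56 and -1.72, whereas IDI1 was at -0.60. Of the 28 genes, 9 had changes of opposite sign in the lines. Of these, MVK (-0.81 in SKBR-3 and 0.60 in BT474m1) and STARD4 were beyond 0.5 in both lines.

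**Figure D3:**
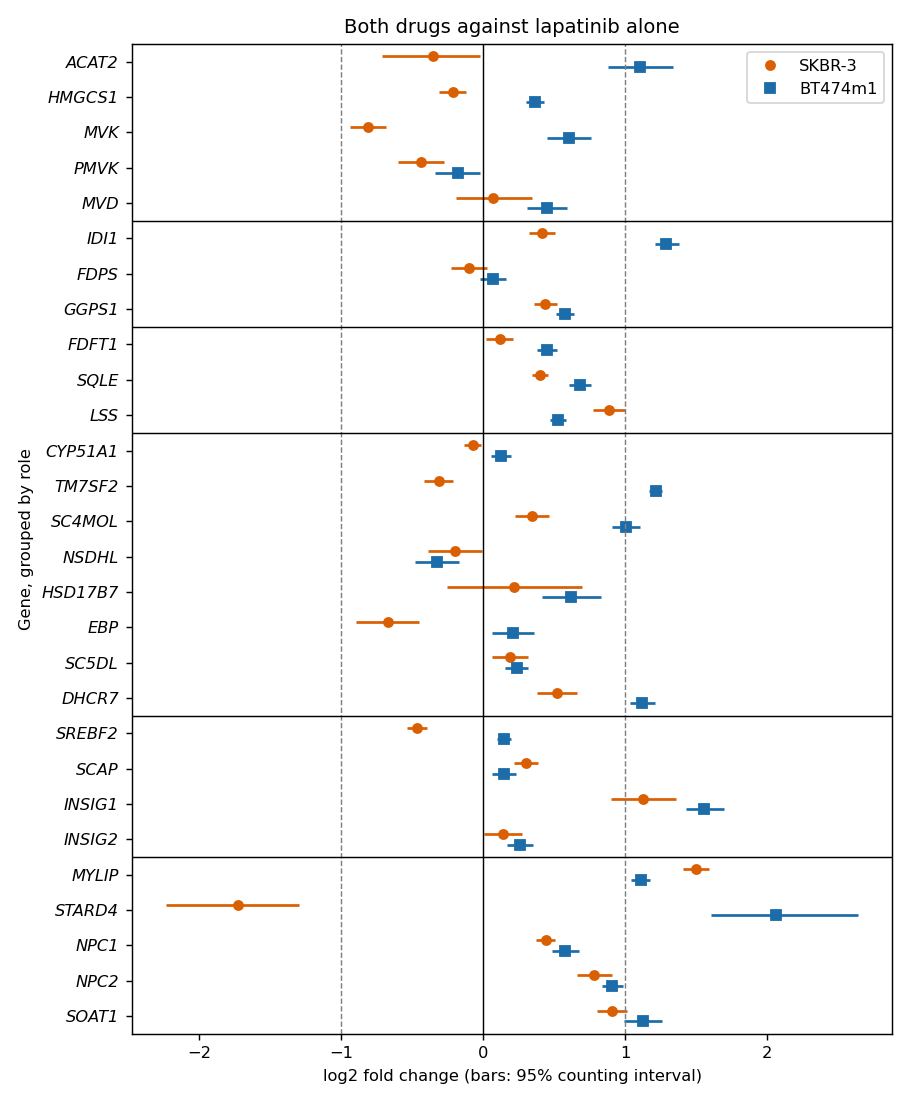
The log2 fold change of both drugs against lapatinib alone for the 28 genes, with SKBR-3 as orange circles and BT474m1 as blue squares, 95% counting intervals as bars and dashed lines at 2-fold. In BT474m1 26 of the 28 points lie above 0 and 9 reach 2-fold. For 9 of the 28 genes the points lie on opposite sides of 0 in the lines, and of these STARD4 and MVK are beyond 0.5 in both lines.

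The joint effect of the drugs was read as the departure of the combined change from lapatinib plus JQ1, on the log2 scale. In SKBR-3 the median departure from the sum was -0.12, against -0.06 for all genes, with 9 of the 28 above 0 and 19 below, and scaling to equal totals took it to -0.0094. TM7SF2 (-1.14) and STARD4 (-1.68) were at least 2-fold below the sum there, 2 of the 28 against 7.58% of all genes, and 0 were at least 2-fold above it, against 3.9%. In BT474m1 the median departure was 0.36, against 0.01 for all genes, with 19 above 0 and 9 below. ACAT2 (1.55), HMGCS1 (1.25), SC4MOL (1.003), HSD17B7 (1.09), INSIG1 (1.04) and STARD4 (1.75) were at least 2-fold above the sum, 6 of the 28 against 4.72% of all genes, and 0 were at least 2-fold below it, against 4.73%. The departure draws on 1 library each of DMSO, lapatinib, JQ1 and both drugs, and both terms of the sum share the DMSO library.

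With DMSO alone, sterol synthesis transcripts were higher in BT474m1 than in SKBR-3. Of the 28 genes, 15 were at least 2-fold higher in BT474m1 (26.8% of all genes) and 1 was at least 2-fold lower (15.6%), with a median log2 difference of 1.07 against 0.21 for all genes. Scaling by the median of ratios gave a median of 0.91, with 12 higher and 2 lower genes, and ACAT2, SC5DL and DHCR7 were no longer at least 2-fold higher. Among the 19 enzymes, 12 were at least 2-fold higher and 18 were above 0. TM7SF2 had the largest difference, 3.32 (3.18 to 3.46), followed by MVD with 2.92 (2.76 to 3.10), HSD17B7 with 2.78 (2.48 to 3.15) and HMGCS1 with 2.74 (2.69 to 2.80). INSIG1 was higher by 2.42 (2.31 to 2.52) and SREBF2 by 1.30 (1.24 to 1.35). MVK (0.16) and SQLE (0.17) were nearly level. NPC1 was the gene at least 2-fold lower in BT474m1, with -1.27 (-1.36 to -1.19), and SOAT1 (-0.94), SCAP (-0.59) and CYP51A1 (-0.23) were also below 0. Culture and sequencing dates are not given in the sources used here, so that line and batch cannot be told apart.

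**Figure D4:**
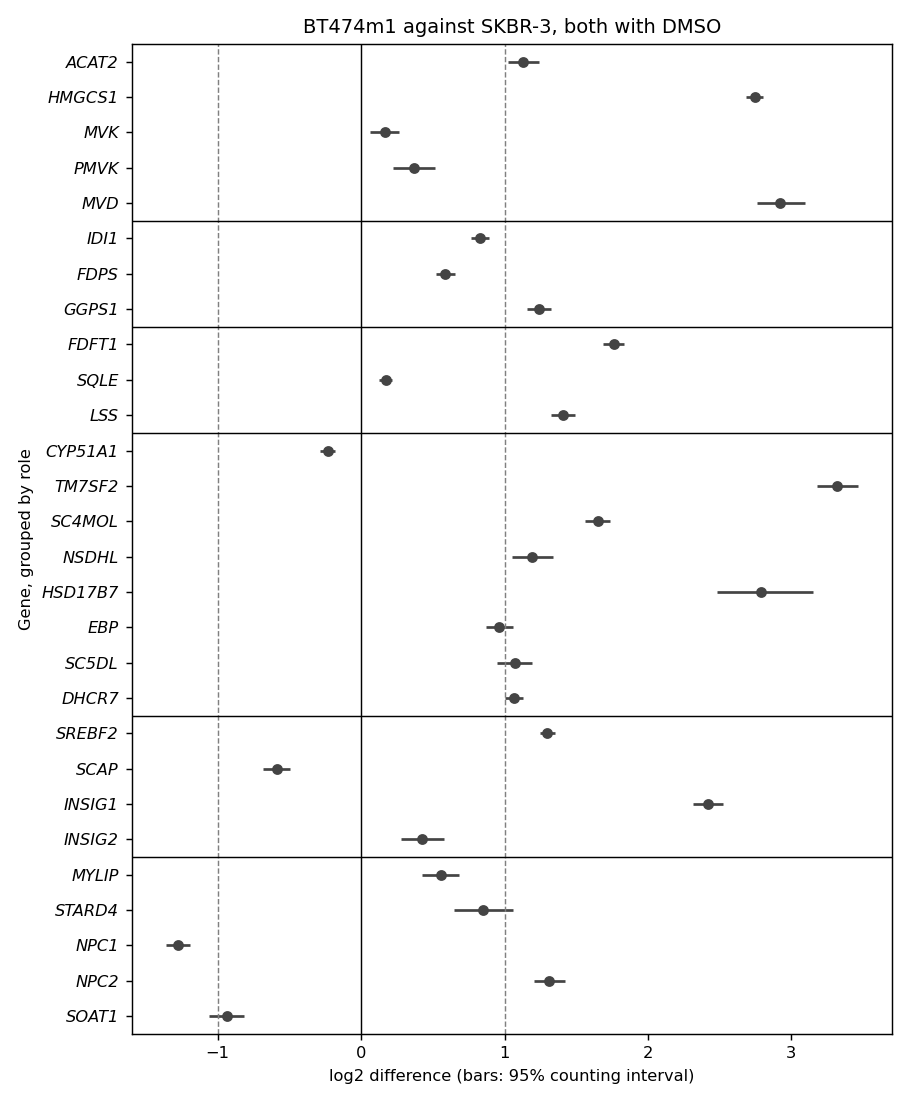
The log2 difference of BT474m1 from SKBR-3 for the 28 genes, both with DMSO, with 95% counting intervals as bars and dashed lines at 2-fold. Of the 28 points 24 lie to the right of 0 and 15 reach 2-fold, and NPC1 is the gene that lies beyond 2-fold on the left.

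Further genes of sterol handling were read from a list of 32 (SREBP processing and INSIG turnover, prenyl and ubiquinone branches, lipoprotein receptors, efflux and the liver X receptors, among others), all of which passed the filter. With lapatinib, 3 were at least 2-fold higher and 5 lower in SKBR-3, and 1 higher and 3 lower in BT474m1, with medians of 0.09 and 0.14. As shares of the 32 these were 9.38% and 15.6% in SKBR-3, against 11.1% and 9.44% of all genes, and 3.12% and 9.38% in BT474m1, against 14% and 8.06%. ABCA1, the cholesterol exporter, had the largest rise in both lines, by 2.32 (1.77 to 3.03) in SKBR-3, from 19.3 to 100.3, and by 2.13 (1.98 to 2.29) in BT474m1, from 212 to 931. The second largest was that of NR1H3, which encodes a liver X receptor, in SKBR-3, from 73.7 to 170.0, by 1.19 (0.86 to 1.56). In BT474m1 it was that of SCARB1, a lipoprotein receptor, from 825 to 1578, a change of 0.93 (0.85 to 1.02). PDSS1, a subunit of the enzyme that makes the ubiquinone side chain, had the largest fall in both lines, from 479 to 95.5 in SKBR-3, with -2.31 (-2.61 to -2.05), and from 202 to 54.7 in BT474m1, with -1.87 (-2.22 to -1.55). Next came TMEM97, an endoplasmic reticulum protein that binds sterols and NPC1, in SKBR-3, from 1317 to 365, with -1.85 (-2.002 to -1.71). In BT474m1 it was COQ2, the next enzyme of ubiquinone synthesis, from 189.5 to 53.0, with -1.82 (-2.19 to -1.50).

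The same list had 1 rise and 3 falls of at least 2-fold with JQ1 in SKBR-3, and 2 and 3 in BT474m1, with medians of -0.01 and 0.00 (3.75% and 11.8% of all genes, and 4.81% and 11.8%). For the combination against DMSO the rises and falls were 4 and 6 in SKBR-3, and 3 and 3 in BT474m1, with medians of -0.13 and -0.01 (10.8% and 20.8% of all genes, and 14.2% and 15.3%). Against lapatinib, both drugs raised 0 of the 32 in SKBR-3 and lowered 5, and raised 2 and lowered 2 in BT474m1, with medians of -0.18 and -0.12 (3.22% and 16.2% of all genes, and 5.2% and 12.5%). Some of these counts rest on the setting. Scaling by the median of ratios took ABCG1 with both drugs against lapatinib in SKBR-3 from 0.85 to 1.01, and the interval excluded 0 for 1 of the 2 rises with JQ1 in BT474m1. The medians against lapatinib compare with 0.16 and 0.58 for the 28 sterol genes in the same contrast.

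The 12 genes of fatty acid synthesis, most of which respond to SREBP1 and some also to SREBP2, had medians of -0.38 in SKBR-3 and -0.88 in BT474m1 with lapatinib, where 3 and 5 were at least 2-fold lower, against 9.44% and 8.06% of all genes, and 0 higher in each line, against 11.1% and 14%. Of the 3 in SKBR-3, the interval excluded 0 for 2. With JQ1 their medians were 0.29 and 0.31, with 4 and 3 raised, against 3.75% and 4.81% of all genes, and 0 and 1 lowered, against 11.8% in each line. Both drugs gave medians of -0.26 and -0.83 against DMSO, and of -0.12 and 0.29 against lapatinib. Markers of proliferation moved with the drugs as well. All 11 of that list were at least 2-fold lower with lapatinib in each line, with medians of -3.66 in SKBR-3 and -4.44 in BT474m1, and their summed value went from 66437 to 7769 and from 35909 to 3491. With JQ1 their medians were -0.36 and -0.81, and with both drugs against lapatinib -2.17 and 0.02. Their part in the sterol gene changes was not tested.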

How the data were processed

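Transcripts with a poly(A) tail were sequenced from 8 cultures, and groups were taken from the labels. The deposited files give a signal for every gene, namely RSEM read counts that the authors scaled so that genes above 0 have an upper quartile of 1000. The submitters' processing notes name hg19, Picard 1.88, SAMtools 1.2, RSEM, DESeq, R 3.2.2 and DESeq2 1.12.3, with no roles. The study's methods text names another build, STAR and Salmon, so that the build, aligner and annotation of the tables are uncertain. The labels name both a stranded and an unstranded library kit, and the strand used in counting is not given in the sources used here, so that reads of overlapping genes cannot be assigned. The study's text gives a shorter treatment than the labels in its methods and in a legend on the design, and that of the labels in another legend, and the labels were followed.

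The value of 1 read was recovered per library as the common step between values. Between 83.8% and 85.2% of the values above 0 were then whole reads within 0.02 reads, and the rest were fractional estimates. Analysis used matplotlib 3.10.9, scipy 1.17.1, pandas 2.3.3 and numpy 2.4.6 under Python 3.11.15. Genes at 10 or more in at least 1 library were kept, which left 14429 and removed 6102. The log2 fold change is the difference of log2(value + 1), which understates changes of low genes, and a gene was called at 2-fold or more. The 95% counting interval is an exact (Clopper-Pearson) interval on how the reads of a gene divide between 2 libraries. The floor of 3 reads lay between 1.41 and 2.30 units. Neither intervals nor floors include more than counting error, so the spread between cultures is not in them. The procedure was tested on simulated data.

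The 28 genes and the 14 lists were chosen with earlier results of these data known. Genes at least 2-fold changed in 1 or more of the 6 comparisons with DMSO, and INSIG1, INSIG2, SREBF2 and SCAP, are given with all 8 values, and the others by their range. From the further list of 32, the 2 largest rises and falls with lapatinib per line are named, at 100 or more in a library. Alternatives were other scalings (equal totals, median of ratios), a pseudocount of 10, a filter at 100 or none, and calls only where the interval excludes no change, which was chosen after seeing the data. Promoters are from RefSeq on GRCh38.p14. Coordinates are given for these promoters only and belong to that build, since the build of the tables is uncertain.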

Additional observations from a re-analysis of the deposited data

Results flagged for a closer look

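STARD4 and MVK moved in opposite directions in the lines when both drugs were compared with lapatinib alone, each by more than 0.5 on the log2 scale and with counting intervals that leave out 0. For STARD4 the log2 change was -1.73 in SKBR-3 and 2.06 in BT474m1, a difference of 3.79. For MVK it was -0.81 in SKBR-3 and 0.60 in BT474m1, a difference of 1.41. In this comparison 9 of the 28 genes had changes of opposite sign in the lines. The differences of TM7SF2 (1.53) and ACAT2 (1.46), which were among these, were larger than that of MVK. With 1 library per group the difference between the lines was not tested, and for STARD4 the lowest library held 40 reads.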

How the results depend on the processing

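Of 29 counts and medians over the 28 genes, no filter, a filter at 100 and the interval rule, which bears on 18 of them, moved none by more than the limit set for them (1.5 times for a count). A pseudocount of 10 moved 1: the genes raised by lapatinib in BT474m1 went from 2 to 1. Scaling by the median of ratios moved 4 and reversed 1. It took the genes raised by lapatinib in BT474m1 from 2 to 0, those raised by both drugs against lapatinib in SKBR-3 from 2 to 4, and those lower in BT474m1 than in SKBR-3 with DMSO from 1 to 2, while those higher went from 15 to 12. It took the median difference between the lines with DMSO from 1.07 to 0.91, and turned the median of both drugs against DMSO in SKBR-3 from -0.08 to 0.0605. Scaling to equal totals moved 3: in SKBR-3 the genes raised by JQ1 went from 2 to 1 (LSS was lost), the median with JQ1 from 0.33 to 0.18 and the median departure from the sum from -0.12 to -0.0094. The median of all genes moved by more than 0.1 with the median of ratios, by 0.11 for both drugs against lapatinib in SKBR-3 and by -0.15 for the lines with DMSO, and with equal totals by -0.14 for JQ1 in SKBR-3. In 15 cases a single gene's log2 change of 0.13 or less in size changed sign under another scaling.

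The labels carry no replicate numbers, and a fit that pairs the libraries by line was not run. With 1 library per group no library was left out in turn, and a difference between cultures cannot be told apart from a drug effect. Reads were fewest for STARD4, with 40 in its lowest library, and HSD17B7, with 68.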
